A study of Mus musculus with 2 samples.

Results

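The endoplasmic reticulum (ER) folding and unfolded protein response genes examined here are 36 named genes that act in protein folding in the ER, in the removal of misfolded proteins and in the signalling that adjusts both. They were chosen by name, as all probe sets whose platform gene symbol is one of the 36, out of 18193 genes that the platform names by 1 symbol. Together they have 81 probe sets. The list name Ero1lb is an older symbol, and its probe sets carry the symbol Ero1b, which is used below. By arm, 17 genes belong to chaperones and folding, 8 to ER-associated degradation (ERAD), 2 to XBP1, 2 to ATF6 and 7 to PERK and ATF4.

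Livers came from male mice of the 129SvEJ strain aged 8 weeks, on chow that contained 0.2% fenofibrate for 7 days. The mice were either pparalpha-/-, called null below, or wild type, and both genotypes received the drug. RNA of 3 mice was pooled per genotype and each pool was measured on 1 short oligonucleotide array, so every value is a single measurement with no replicate check, test or error of its own. Fenofibrate activates PPARα, a nuclear receptor that controls fatty acid oxidation genes in hepatocytes, and the labels give neither the disrupted part of its gene nor whether the loss was limited to a tissue. No array of mice without fenofibrate was analysed here, so a difference between genotypes present without the drug cannot be told apart from a difference in response to it.

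Secreted and membrane proteins enter the ER through the translocon, are bound by chaperones such as BiP and by the lectins calnexin and calreticulin, and gain their disulfide bonds from protein disulfide isomerases. When unfolded proteins build up, the sensors IRE1, ATF6 and PERK are activated. IRE1 splices the Xbp1 transcript, ATF6 is cut in the Golgi to release a transcription factor, and PERK phosphorylates eIF2α, which favours translation of ATF4. Hepatocytes secrete most plasma proteins, and XBP1 and the liver-enriched factor CREB3L3 are also known there for roles in lipid metabolism.

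Promoters of several chaperone genes carry the ER stress response element (ERSE), which is bound by ATF6 with the factor NF-Y, and the window from 250 bases before to 50 bases after each RefSeq gene start (GRCm38.p6) was searched for it. Of the 36 genes, 32 had such a window, the others being Hyou1, Manf, Derl1 and Atf6. The ERSE consists of CCAAT and CCACG with 9 free bases between them. Searched on both strands, it was found in 10 of the 32, namely Hspa5, Hsp90b1, Calr, Canx, Pdia6, Dnajc3, Creld2, Ero1b, Syvn1 and Derl3, and in 0.119% of all 32851 promoter windows (39 windows). The related ERSE-II, which is ATTGG and CCACG with 1 free base between them, was found in Herpud1 and Dnajb11 and in 0.0365% of all windows. The Hspa5 upstream stretch is shown because Hspa5 encodes BiP, and that of Sdf2l1 because this gene had the largest log2 ratio among those above the floor, defined below, on both arrays. The other stretches are shown to compare the elements. Capitals mark the match to the ERSE or, in Herpud1, the ERSE-II, and sequences run 5′ to 3′ on the strand of the gene.
Hspa5, chr2:34771840-34772089, plus strand: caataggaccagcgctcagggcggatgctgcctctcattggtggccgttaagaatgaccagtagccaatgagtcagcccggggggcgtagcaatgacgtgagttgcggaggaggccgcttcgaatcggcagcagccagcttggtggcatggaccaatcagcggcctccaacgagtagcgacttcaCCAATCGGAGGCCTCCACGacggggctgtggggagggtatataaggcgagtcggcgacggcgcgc
Sdf2l1, chr16:17132384-17132633, minus strand: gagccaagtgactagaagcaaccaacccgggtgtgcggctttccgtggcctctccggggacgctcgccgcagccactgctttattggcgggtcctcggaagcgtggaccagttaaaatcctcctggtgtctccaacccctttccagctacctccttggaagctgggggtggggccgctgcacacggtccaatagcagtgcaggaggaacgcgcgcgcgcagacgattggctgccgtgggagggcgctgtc
Hsp90b1, chr10:86705628-86705666, minus strand: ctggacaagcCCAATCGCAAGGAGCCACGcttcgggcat
Hsp90b1, chr10:86705523-86705561, minus strand: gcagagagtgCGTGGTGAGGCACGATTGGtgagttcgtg
Calr, chr8:84847065-84847103, minus strand: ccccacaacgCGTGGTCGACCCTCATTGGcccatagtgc
Canx, chr11:50325790-50325828, minus strand: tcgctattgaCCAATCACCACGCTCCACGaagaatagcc
Pdia6, chr12:17266481-17266519, plus strand: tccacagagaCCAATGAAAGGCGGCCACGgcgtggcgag
Dnajc3, chr14:118937817-118937855, plus strand: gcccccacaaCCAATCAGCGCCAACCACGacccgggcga
Creld2, chr15:88819510-88819548, plus strand: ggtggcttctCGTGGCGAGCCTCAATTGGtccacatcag
Ero1b, chr13:12565672-12565710, plus strand: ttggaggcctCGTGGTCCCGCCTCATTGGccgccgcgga
Herpud1, chr8:94386367-94386397, plus strand: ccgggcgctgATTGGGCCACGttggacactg
Syvn1, chr19:6046522-6046560, plus strand: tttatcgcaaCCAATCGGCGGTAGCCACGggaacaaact
Derl3, chr10:75893232-75893270, plus strand: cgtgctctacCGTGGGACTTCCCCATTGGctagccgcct

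All stretches lie upstream of the annotated start. The Hsp90b1 promoter holds 2 elements in opposite orientation, and the Dnajb11 element lies after the start, at positions 8 to 18. With at most 1 mismatch in the fixed letters, a search added after the data were seen, the ERSE was found in 16 of the 32 genes and in 494 of all windows, and Sdf2l1 had no match at that setting either. The XBP1 element TGACGTGG was found in 0 of the 32 genes and in 0.676% of all windows. For the C/EBP-ATF element bound by ATF4, the letters TTGCATCA were found in Herpud1, Atf3 and Chac1 and in 0.895% of all windows. The longer form TGATGCAAT, which contains the shorter one when read on the other strand, was found in 0 of the 32 and in 0.192%. A match is a description of the letters and does not show binding.

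Signals are in arbitrary units on a linear scale. Each array got a floor, the median over its probe sets without the controls, which was 269.4 for null and 287.8 for wild type. Log2 ratios are null over wild type with signals under the floor replaced by it, a gene is represented by its brightest probe set, and it counts as measured when above the floor on at least 1 array. The arrays differed in ways that bear on all genes. All 18 hybridization control probe sets, which detect spiked-in transcripts, were brighter on the null array. Their log2 ratios ran from 0.12 to 0.73 with a median of 0.38. Scaling the arrays to them used this median and lowers every log2 ratio by 0.38, an offset that is itself uncertain within that range. The median log2 ratio of the 13041 measured genes was -0.0046 on the deposited scaling. Different probe sets of 1 gene scattered with a pooled SD of 0.42 in the log2 ratio over all genes and of 0.35 over 19 of the 36 genes (55 probe sets). Ppara itself gave 35.96% to 50.6% of the wild-type signal on the null array at its 3 probe sets, and all 9 genes of a check list (Ppara and 8 known targets) were at least 2-fold lower in null. The ratio of the 3′ to the 5′ probe set of actin was 2.27 in null and 1.89 in wild type, and that of Gapdh 0.74 in null and 0.68 in wild type.

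As a group, ER folding and unfolded protein response genes had modestly higher signals in null liver than in wild-type liver on the deposited scaling. Of the 36 genes, 34 were above the floor on both arrays, Derl3 was above it in wild type only, and Atf3 was under it on both. Among the 34, 28 had the higher signal in null, against 52.2% of all 10060 genes above the floor on both arrays. The median log2 ratio of the 35 measured genes was 0.37, a 1.29-fold difference. After scaling to the hybridization controls the median was -0.0095 and 17 of 35 ratios were positive. That scaling shifts all genes alike, so it leaves the distance of this median from that of all measured genes at 0.37 by construction. At least 2-fold differences were few: Sdf2l1 was higher in null, where 2.80% of all measured genes were, and Derl3 was lower, where 4.99% were. At 1.5-fold, 7 of 35 were higher in null and 1 lower, against 11.0% and 14.8% of all measured genes. Scaling to the hybridization controls, combined with this threshold after the data were seen, gave 1 higher (Sdf2l1) and 4 lower (Derl3, Creb3l3, Pdia4 and Creld2). The share of all measured genes at 1.5-fold was not computed under that scaling, so these counts cannot be set against it. At 2-fold that scaling gave 109 of all 13041 measured genes higher and 1759 lower, against 365 and 651 as deposited.

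Hepatocyte markers, which bear out the liver label with 7 of 7 far above the floor on both arrays, lay in the same direction as the ER genes. All 7 were higher in null on the deposited scaling, with a median log2 ratio of 0.31 that is under 0 after scaling to the hybridization controls, and their summed signal was 917094 in null and 778734 in wild type. Their part in the difference was not tested. In RNA of whole liver, fewer cells of a type and less RNA per cell cannot be told apart.

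**Figure D1:**
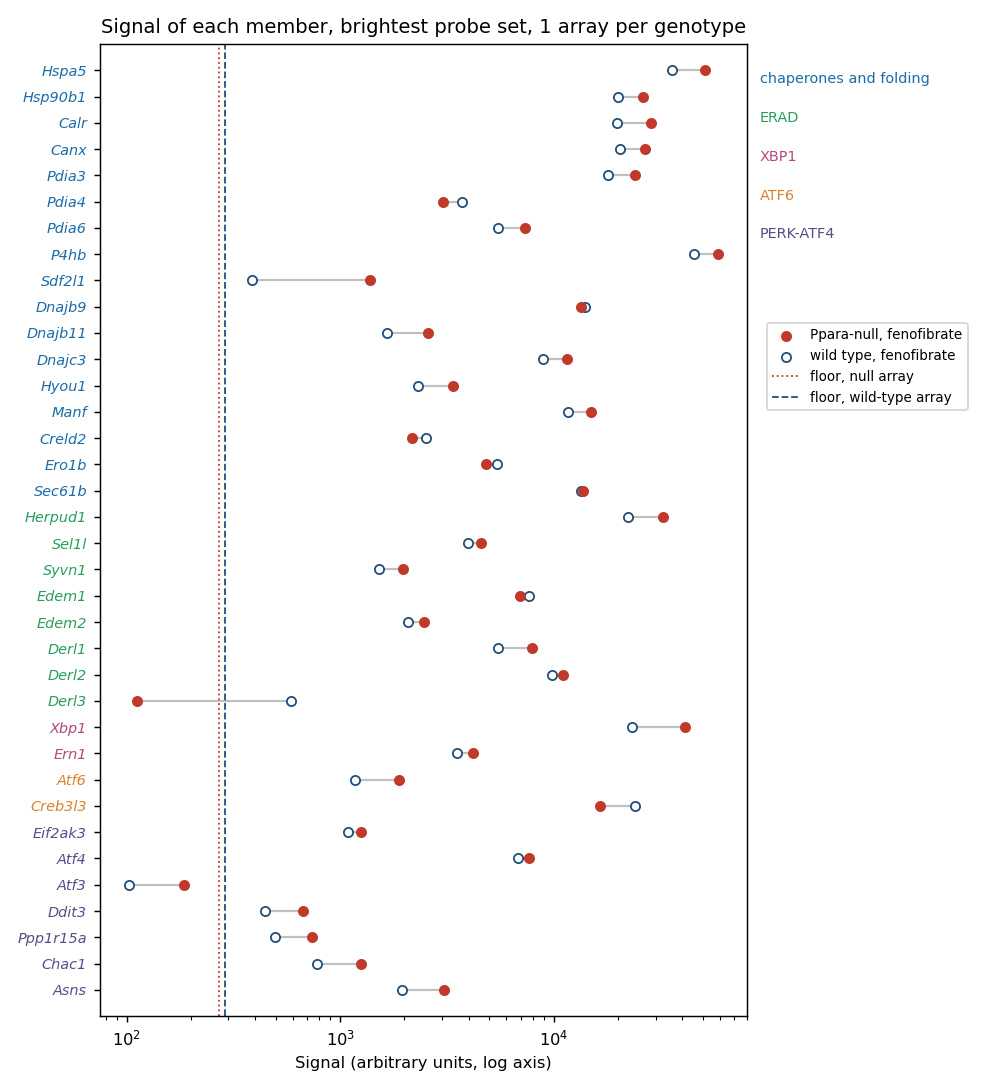
Signal of the brightest probe set of each of the 36 genes in null (filled) and in wild type (open), on a log axis, with gene names coloured by arm and the floors as vertical lines. On the deposited scaling 28 of the 34 genes above the floor on both arrays lie further right in null, a direction that 17 of 35 measured genes show after scaling to the hybridization controls.

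**Figure D2:**
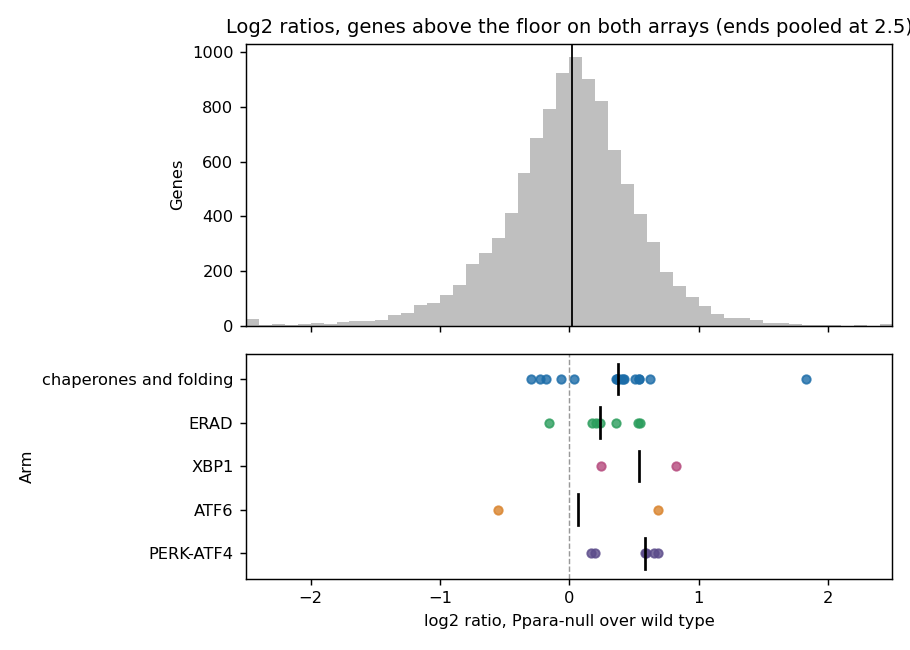
Upper panel: number of genes by log2 ratio (null over wild type) for the 10060 genes above the floor on both arrays, with their median (0.02) as a line and values beyond 2.5 pooled in the end bars. Lower panel: the 34 genes on the same axis by arm, with arm medians as bars, mostly right of the upper median on the deposited scaling. Scaling to the hybridization controls moves all points left by 0.38.

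The main chaperones and the calnexin cycle genes were among the brightest of the group and had higher signals in null on the deposited scaling. Hspa5, which encodes BiP, the ER member of the Hsp70 family, gave 51094 in null and 35940.4 in wild type (log2 ratio 0.51). Its second probe set gave a log2 ratio of 0.44 and the third, a dim one, 1.61 (1488 in null against 488.2 in wild type). Thus all 3 Hspa5 probe sets were brighter in null, with sizes that differed more than the 0.42 scatter. Hsp90b1, the ER Hsp90 protein GRP94, gave 26136 in null and 20079 in wild type. Calr, the calcium-binding lectin chaperone calreticulin, gave 28699 in null and 19761 in wild type, with log2 ratios of 0.53 to 0.60 over 3 probe sets. Canx, its membrane-bound partner calnexin, gave 26829.8 in null and 20351 in wild type (log2 ratio 0.40). The further Canx probe sets did not share a direction, with 0.57 and -0.14. After scaling to the hybridization controls the log2 ratios of these 4 genes at their brightest probe sets lay between 0.0011 and 0.16. These sizes are well inside the 0.42 scatter, so no direction can be read there.

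The disulfide isomerases did not share 1 direction at all probe sets. P4hb, protein disulfide isomerase itself and the brightest gene of the group, gave 58575 in null and 45550.4 in wild type (log2 ratio 0.36). Pdia3, the isomerase that works with the calnexin cycle, gave 23913 in null and 17942 in wild type (0.41). Pdia6 gave 7354 in null and 5481 in wild type (0.42), and its dimmer probe set pointed the other way with -0.19. Pdia4 had the lower signal in null at its bright probe set, at 3024 in null and 3710.3 in wild type (-0.30). Its dim probe set, above the floor in null only, gave 335.1 in null and 228.5 in wild type, and the median over both was -0.04. Ero1b, the oxidase that recharges the isomerases, gave 4801 in null and 5439.6 in wild type (-0.18), while its second probe set gave 0.54. The dim Pdia4 probe set passed the floor through null alone, which leaves little room for a ratio under 0, so only the bright one bears on direction. Pdia6 and Ero1b had probe sets above both floors on both sides of 0, so their directions depend on the probe set. After scaling to the hybridization controls P4hb had a log2 ratio of -0.016, well inside the 0.42 scatter, so no direction can be read for it there.

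Among cofactors of BiP, Sdf2l1 stood apart. Sdf2l1, a component of the ER chaperone complex that works with DnaJ-type cofactors, gave 1378 in null and 386.6 in wild type, a 3.56-fold difference (log2 ratio 1.83). It has 1 probe set, and its wild-type signal was 1.34 times the floor and not far above the brightest Bacillus control there (316.5), a set of probes for transcripts absent from mouse. With the floor at the 75th percentile the Sdf2l1 log2 ratio was 0.77, and after scaling to the hybridization controls 1.45. Dnajb11, a DnaJ cofactor of BiP, gave 2566 in null and 1662 in wild type (1.54-fold). Dnajc3, the cofactor also known as an inhibitor of PERK, gave 11566 in null and 8951 in wild type, and all 5 of its probe sets were brighter in null (0.26 to 0.74). Dnajb9, a DnaJ protein known as a feedback repressor of IRE1, gave 13452 in null and 14086 in wild type. The Dnajb9 signals thus lay within 1.05-fold of each other.

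Hyou1, the large ER Hsp70 relative that exchanges nucleotide on BiP, gave 3373 in null and 2315 in wild type (1.46-fold). All 3 Hyou1 probe sets were brighter in null, with log2 ratios of 0.36, 0.54 and 1.25. Leaving out probe sets ending in _x_at or _s_at makes the last one, with 1601 in null and 674.5 in wild type, the value of the gene. Manf, a small secreted ER protein known as a neurotrophic factor, gave 15024 in null and 11639.8 in wild type (0.37). Creld2, an ER protein with EGF-like repeats, gave 2163 in null and 2526 in wild type (-0.22). Sec61b, a subunit of the translocon, gave 13769.9 in null and 13403 in wild type, a log2 ratio of 0.04. In all, 13 of the 17 chaperone and folding genes had the higher signal in null, with a median log2 ratio of 0.38 (0.0011 after scaling to the hybridization controls). Pdia4, Dnajb9, Creld2 and Ero1b were the 4 with the lower signal.

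**Figure D3:**
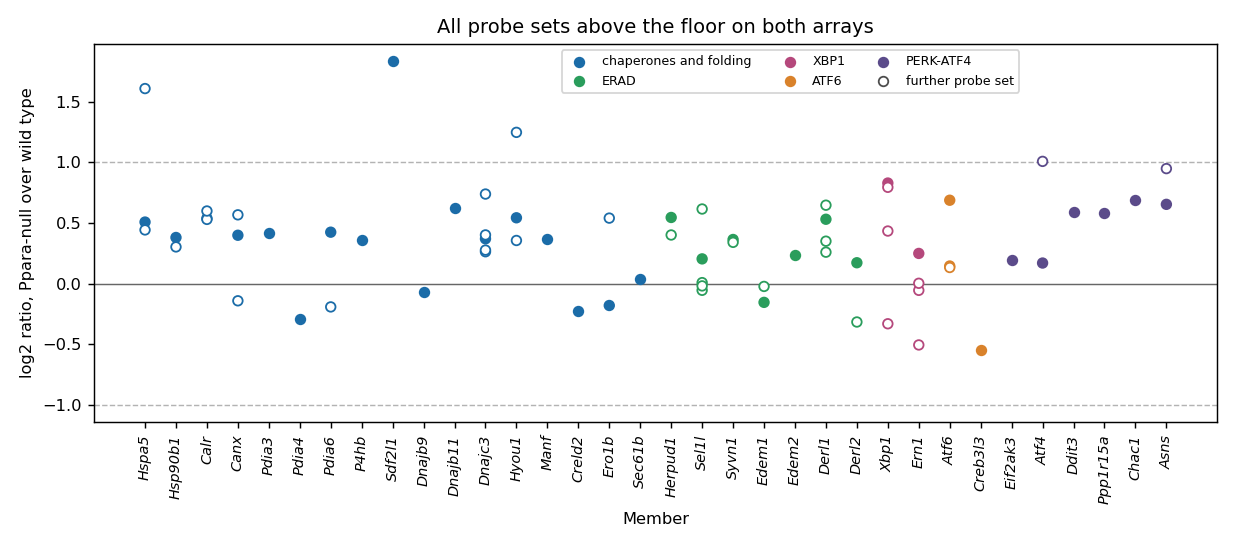
Log2 ratio (null over wild type) of each of the 70 probe sets above both floors, by gene and coloured by arm, with the brightest probe set of a gene filled, further ones open, and dashed lines at 2-fold. On the deposited scaling 55 of the 70 lie above 0, and several genes, among them Canx, Pdia6, Xbp1 and Ern1, have probe sets on both sides. Scaling to the hybridization controls lowers all points by 0.38.

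Over single probe sets rather than genes, 55 of the 70 above both floors were brighter in null (78.6%), against 52.7% of all 16279 named probe sets above both floors. Their median log2 ratio was 0.37, against 0.03. At least 2-fold higher in null were 4 of them, where 2.46% of the named probe sets were. These 4 were the only probe set of Sdf2l1 and dimmer ones of Hspa5, Hyou1 and Atf4. Of the 70, 0 were at least 2-fold lower, where 3.30% of the named probe sets were. Under the control scaling, looked at after the data were seen, 2 of the 70 were at least 2-fold higher and 0 lower. The shares of all named probe sets were not computed under that scaling, which lowers every log2 ratio by 0.38. The 2.46% and 3.30% given here therefore do not serve as a comparison for these counts. Of the remaining 11 probe sets, 8 were under the floor on both arrays, 2 above it in null only and 1, that of Derl3, in wild type only.

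ERAD genes had a smaller median, and 1 of them, Derl3, lay past 2-fold in the other direction. Herpud1, a membrane protein that links the ubiquitin ligase complex to its partners, gave 32457 in null and 22240.2 in wild type (log2 ratio 0.55), with 0.40 at its second probe set. Derl1, a derlin of the retrotranslocation channel, gave 7919 in null and 5482 in wild type, and its 4 probe sets all were brighter in null (0.26 to 0.65). Syvn1, the ubiquitin ligase HRD1, gave 1967 in null and 1528 in wild type (0.36), with 0.34 at the other probe set. These were the ERAD genes with higher null signals at every probe set above both floors and more than 1 such probe set.

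The other ERAD genes differed little. Sel1l, the adaptor of HRD1, gave 4579 in null and 3975 in wild type (0.20), and its 5 probe sets ran from -0.05 to 0.62. Edem1, a mannosidase-like protein that directs glycoproteins to degradation, gave 6921 in null and 7703 in wild type, with both probe sets under 0 (-0.15 and -0.02). Its relative Edem2 gave 2464 in null and 2086 in wild type (0.24). Derl2 gave 11039 in null and 9797 in wild type, with log2 ratios of 0.17 and -0.32 at its probe sets. Thus Sel1l and Derl2 had probe sets on both sides of 0.

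Derl3, the derlin known for high expression in secretory cells, gave 112.4 in null, under the floor, and 585.7 in wild type, and was at least 2.17-fold lower in null. It passed the floor through wild type alone, which fixes its sign, and its value rests on 1 probe set. With the floors at the brightest Bacillus controls (422.4 in null and 316.5 in wild type) its log2 ratio was -0.47, under 2-fold. The 8 ERAD genes had a median log2 ratio of 0.22, with 6 positive, and a median of -0.16 after scaling to the hybridization controls.

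In the IRE1 and XBP1 arm, the transcript of the factor differed more than that of its activator. Xbp1 gave 41363 in null and 23282 in wild type, a 1.78-fold difference. Its second brightest probe set gave 31435 in null and 18129 in wild type (0.79) and the third 0.43, while the dimmest gave -0.33, at 1199 in null and 1508 in wild type. The 3 bright probe sets thus agree in direction and the dim one is opposed, and scaling to the hybridization controls left 0.45 at the brightest. The table does not separate spliced from unspliced Xbp1. Ern1, which encodes IRE1α, gave 4179 in null and 3517 in wild type (0.25). Its other probe sets above both floors gave -0.06, -0.51 and 0.0028, so they share no direction.

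The ATF6 arm held genes of opposite sign. Atf6 gave 1893 in null and 1176 in wild type, a 1.61-fold difference, but its further probe sets gave 0.15 and 0.13. With the median over probe sets the Atf6 log2 ratio was 0.15. Creb3l3, the liver-enriched membrane-bound factor that is activated in the same way as ATF6, gave 16417 in null and 24036 in wild type, 1.46-fold lower in null, at its only probe set. Creb3l3 had the lowest log2 ratio among the 34 genes above both floors (-0.55). With 1 bright probe set, its value could not move with the floor or the probe set rule, and it was -0.54 after quantile normalization and -0.60 after the loess fit. The median of these 2 genes, 0.07, says little, and it was -0.20 with the median over probe sets and -0.31 under the scaling to the hybridization controls.

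PERK and ATF4 pathway genes had the highest median of the larger arms, 0.59 over 6 measured genes, all higher in null on the deposited scaling and 4 of them after scaling to the hybridization controls. At the brightest probe sets and on the deposited scaling, Eif2ak3 and Atf4 had the smallest log2 ratios of the 6. Eif2ak3, which encodes PERK, gave 1255 in null and 1094 in wild type (0.20). Atf4 gave 7663 in null and 6812 in wild type (0.17), although a dimmer probe set gave 3147 in null and 1565 in wild type (1.01), and with the median over probe sets the Atf4 log2 ratio was 0.59. ATF4 is controlled mainly through its translation, which these arrays do not measure.

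At their brightest probe sets the other 4 measured genes of this arm had larger log2 ratios, while a wider list of the pathway, given below, had a median of 0.11. Asns, asparagine synthetase, gave 3066 in null and 1949 in wild type (1.57-fold), and its second probe set 1303 in null and 675.4 in wild type (0.95). Chac1, a glutathione-degrading enzyme, gave 1257 in null and 780.5 in wild type (1.61-fold). Both Asns and Chac1 thus passed 1.5-fold. Ddit3, the factor CHOP, gave 672.6 in null and 445.8 in wild type (1.51-fold). Ppp1r15a, the GADD34 subunit that directs a phosphatase to eIF2α, gave 739.4 in null and 493.9 in wild type (0.58). These are dim signals, at 1.55 and 1.72 times the floor in wild type. Atf3 was under the floor on both arrays, at 185.6 in null and 102.8 in wild type, so no ratio is given. Under the control scaling the median of the 6 genes was 0.21, and Eif2ak3 and Atf4 were the ones under 0.

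Higher signals in null were found among dim and bright genes of the group on the deposited scaling. Of the 34 genes above both floors, 14 had a mean signal of 10000 or more, with a median log2 ratio of 0.38 and 12 positive, against a median of 0.07 over all 989 genes in that range. The 4 genes between 500 and 1000 had a median of 0.64, against -0.02 over all 2486 genes there. Those between 2000 and 5000 (8 genes) and between 5000 and 10000 (5 genes) had medians of 0.24 and 0.17, against 0.07 and 0.05. After a loess fit had removed the trend of ratio on signal, 27 of 35 were positive. The 12 genes with an ERSE or ERSE-II had a median log2 ratio of 0.39, with 9 positive, and the 19 measured genes without one had 0.24, with 15 positive. Both sets span values under and over 0, from -1.12 for Derl3 to 0.63 for Dnajb11 with an element, and from -0.55 for Creb3l3 to 1.83 for Sdf2l1 without.

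**Figure D4:**
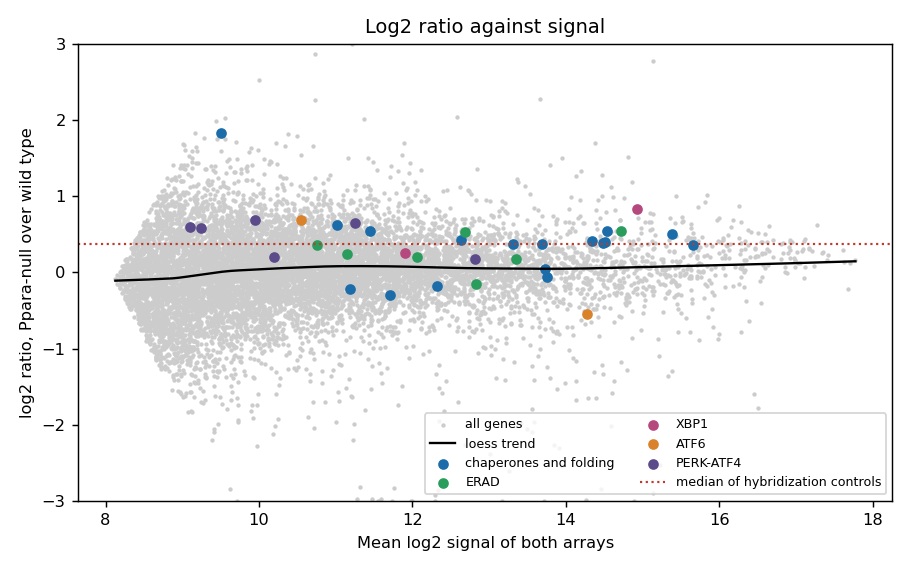
Log2 ratio (null over wild type) against the mean log2 signal of both arrays for the 10060 genes above both floors (grey, drawn at the edge beyond 3), with the loess trend as a black line, the 34 ER genes coloured by arm and the median of the hybridization controls (0.38) dotted. The ER genes lie mostly above the trend at low and at high signal, and about evenly on either side of the dotted line.

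Further genes of the secretory pathway, of unfolded protein response signalling and of the eIF2α and ATF4 pathway, and known CREB3L3 targets, were looked up from 8 lists. These hold 163 names, of which 147 were measured. Of these 147, 110 had the higher signal in null, where 6473 of all 13041 measured genes did. Their median log2 ratio was 0.21, against -0.0046 over all measured genes, and a median of 0.21 is under 0 after scaling to the hybridization controls. At least 2-fold higher were 4 and lower 2, close to or under the 2.80% and 4.99% of all measured genes. Among these calls, Sec24b and Traf2 passed the floor through null alone and Tmed2 and Fgf21 through wild type alone, which fixes their signs. Other ER folding enzymes had a median of 0.15 (19 of 25 positive), between Cnpy3 (-0.56) and the glucosidase subunit Ganab (0.54). Translocon and signal peptide processing genes had 0.27 (14 of 16 positive), between Sec11c (-0.11) and Tram1 (0.60), and 0 of 16 were 2-fold apart. In N-glycosylation the median was 0.23 (11 of 16 positive), and the mannosyltransferase Alg3 was 2.35-fold higher in null (1952 against 829.1 in wild type), with Alg12 lowest at -0.48.

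Other ERAD genes had a median of 0.29 (15 of 21 positive), between Man1b1 (-0.80) and the ubiquitin-conjugating enzyme Ube2g2 (0.57). ER to Golgi transport genes had 0.19 (18 of 22 positive). Among them Sec24b was at least 3.47-fold higher in null (998.6 against 192.0 in wild type) and Tmed2 at least 2.14-fold lower (36 against 577.6 in wild type), each above the floor on 1 array only. Of those above both floors, Arfgap3 (0.76) was highest and Sar1b (-0.27) lowest. Among other regulators of the response the median was 0.13 over 12 genes. Traf2, an adaptor of IRE1, was at least 2.25-fold higher in null (648.1 against 280.3 in wild type, under the floor). Atf6b, the relative of Atf6, gave 0.98 at low signals (601.3 in null and 304.6 in wild type), and Nck1 was lowest (-0.61).

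Other genes of the eIF2α and ATF4 pathway had a median of 0.11, with 17 of 27 positive, beside 0.59 for the 6 above. Ddit4 (0.96) was highest and Wars (-0.94) lowest of those above both floors. Trib3 and Sesn2, known as ATF4 targets and named after their values were seen, gave -0.37 and -0.29. Mthfd2 and Cebpb of the same list, also named after their values were seen, went the other way with 0.84 and 0.50. Fgf21, a hormone gene that is a target of both ATF4 and PPARα, was at least 3.50-fold lower in null (168.9, under the floor, against 942.2 in wild type). Known CREB3L3 targets of the liver had a median of 0.31, with 8 of 9 positive beside the lower Creb3l3 signal in null, and that median is under 0 after scaling to the hybridization controls. The highest was Apoa4, 6.84-fold higher in null, and Fgf21 was the 1 lower gene.

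**Figure D5:**
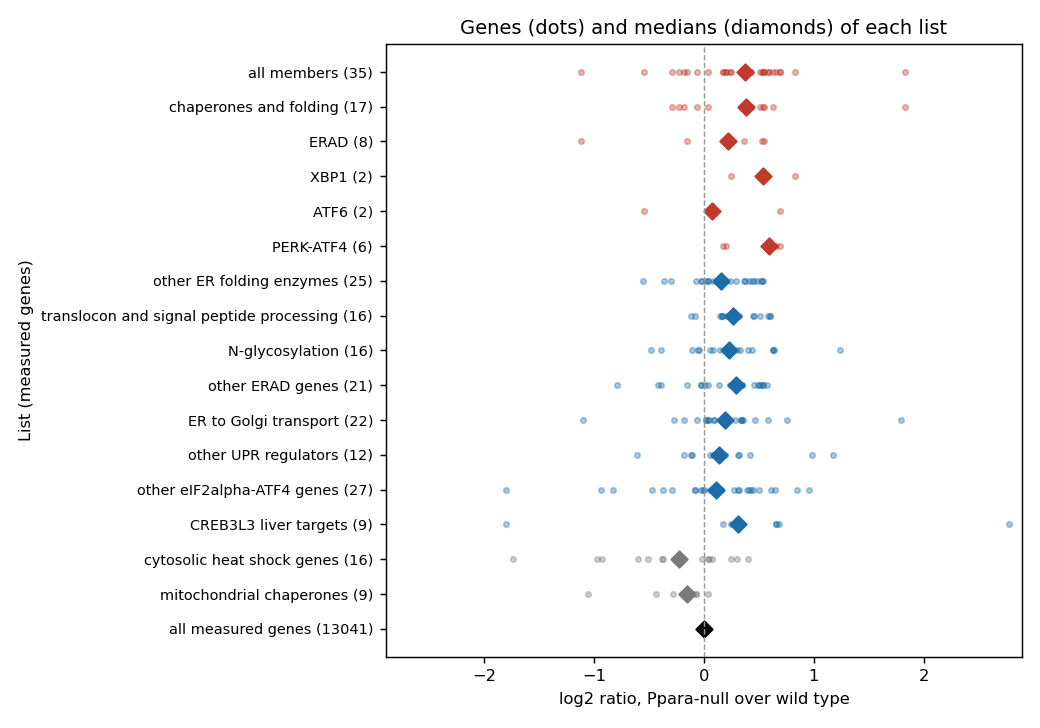
Log2 ratios (null over wild type) of the measured genes of each list as dots and their medians as diamonds. The ER genes and their arms are on top, with further lists of secretory pathway, signalling and CREB3L3 target genes below them. Cytosolic and mitochondrial chaperones and the median of all 13041 measured genes follow, with the number of measured genes in brackets. Medians of the ER genes, their arms and the further lists lie right of 0 on the deposited scaling. Those of the cytosolic and mitochondrial chaperones lie left of it. Scaling to the hybridization controls moves all by -0.38, which puts most list medians under 0.

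Markers of Kupffer cells and macrophages summed to 21593 in null and 14856 in wild type on the deposited scaling. Of these, 5 of 7 were above the floor in null and 6 of 7 in wild type. Among the 6 measured, 5 were positive, with a median log2 ratio of 0.63 over the 6. The 1 negative was Cd68, at 204.3 in null, under the floor, and 373.5 in wild type. Marco was under the floor on both arrays. Plasma cell and B cell markers, considered because these cells are rich in ER proteins, summed to 3136 in null and 1724 in wild type, with 2 of 7 above the floor on each array. Those above it were Ighm, at 1867 in null and 680.2 in wild type, and Mzb1, at 409.9 in null and 348.1 in wild type. The null signal of Mzb1 lay under the brightest Bacillus control there (422.4). The plasma cell genes Jchain, at 260.4 in null and 228.5 in wild type, and Tnfrsf17 were under the floor on both. Pancreatic acinar markers summed to 8373 in null and 6175 in wild type, most of it from Cela1 (5948 in null and 2934 in wild type), while Cela3b (586.7 in null and 1071 in wild type), Cela2a (401.7 in null and 581.8 in wild type) and Cpb1 (24.1 in null, under the floor, and 341.5 in wild type) were lower in null. Of the 6 measured acinar markers 3 were positive and 3 negative, with a median log2 ratio of -0.17, and the acinar gene Cpa1 was at 22.9 in null and 18.3 in wild type. The part of these cell types in the differences of the ER genes was not tested.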

How the data were processed

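Liver RNA pools of 3 mice per genotype were measured on 1 Affymetrix array each. Per the labels, the authors summarised probe pairs with the Affymetrix statistical algorithm and scaled each array to a target of 1000, and the deposited value is a linear signal intensity per probe set. The mean without the lowest and highest 2% was 1000.01 on both arrays. The software version is not given in the sources used here, and detection calls were not used.

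Genes were named by the platform annotation (34945 of 45101 probe sets with 1 symbol, 932 with several, 9160 unnamed and 64 controls). Floors, brightest probe sets, log2 ratios and counts were computed with Python 3.11.15, numpy 2.4.6, pandas 2.3.3 and statsmodels 0.14.6. With 1 array per genotype no test was run, and 2-fold and 1.5-fold served as sizes. Array number limits the precision.

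The genes, arms and lists were chosen with earlier results of these data known. Every member is reported by its brightest probe set. From other lists, genes at least 2-fold apart and the extremes above both floors are named. The procedure was tested on simulated data. Alternatives were 4 scalings, 4 floors, 2 probe set rules and 2 thresholds. Promoters are those of RefSeq. Protein sequences were not used here.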

Additional observations from a re-analysis of the deposited data

How the results depend on the processing

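Of the 4 scalings, 1 removed the direction of the members' median. The median of all measured members was 0.33 after median centring, 0.39 after quantile normalization and 0.32 after loess. After scaling to the hybridization controls the median log2 ratio was -0.0095 for all measured members, 0.0011 for chaperones and folding, -0.16 for ERAD, 0.16 for XBP1, -0.31 for ATF6 and 0.21 for PERK and ATF4, because that scaling subtracts 0.38 from every ratio. The 2-fold calls over all genes, of which 35.9% were higher in null as deposited (365 and 651 genes), were then 5.84% higher (109 and 1759 genes). With the floors at the brightest Bacillus controls they were 50.5% higher (303 and 297). The median of all measured genes was -0.38 under the control scaling, and the members' median exceeded that of all genes by 0.31 to 0.40 over the 10 alternatives, of which median centring and the control scaling cannot change this distance. With the median over probe sets the ATF6 median was -0.20, because Atf6 then gave 0.15 while Creb3l3, with 1 probe set, stayed at -0.55. With the floor at the 75th percentile 0 of 32 measured members were 2-fold higher and 0 lower. That floor lies above the wild-type signal of Sdf2l1 and both signals of Derl3. Of all 7392 genes measured at that floor, 98 were higher and 157 lower. With the floors at the Bacillus controls 0 of 35 members were lower, where 297 of all 11725 measured genes were. Without probe sets ending in _x_at or _s_at 2 of 35 were higher, Hyou1 (log2 ratio 1.25) beside Sdf2l1, where 362 of all 12643 genes were. At 1.5-fold 7 of 35 were higher, where 1439 of all 13041 genes were. At 3-fold 0 of 35 were lower, where 132 of the 13041 were. Derl3 had a log2 ratio of -2.38 with no floor. No paired analysis was possible because each genotype has 1 array. Signals near the floor limit Sdf2l1, Derl3, Atf3, Ddit3 and Ppp1r15a.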

Other observations

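Lists of chaperones of other compartments had medians under 0 on the deposited scaling. Cytosolic heat shock genes had a median log2 ratio of -0.23 over 16 measured genes, with 10 negative and 6 positive, where 6567 of all 13041 measured genes were negative. Hspb1, a small heat shock protein, was 3.35-fold lower in null (524.9 against 1756 in wild type). The inducible Hsp70 genes Hspa1b, at 5953 in null and 11671 in wild type, and Hspa1a, at 277.9 in null and 529.9 in wild type, gave -0.97 and -0.93, although the null signal of Hspa1a lay under the brightest Bacillus control there (422.4) and near-identical copies of this pair may not be separated by the array. Stip1, a cochaperone of Hsp70 and Hsp90, gave -0.60. The constitutive Hspa8 gave 47515 in null and 48283 in wild type. Cryab (0.40), Hspa4 (0.30) and Hspb8 (0.25), named after their values were seen, had the highest log2 ratios of the list.

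Mitochondrial chaperones and proteases had a median of -0.15, with 8 of 9 negative. Hscb, a cochaperone of iron-sulfur cluster assembly, was 2.08-fold lower in null (1156 against 2400.2 in wild type), and Hspd1, the mitochondrial Hsp60, gave 52253 in null and 55059 in wild type (-0.08). The difference between these lists and the ER genes was not tested. Scaling to the hybridization controls put the ER median at -0.0095. It lowers the medians of these lists by the same 0.38, so their distances from the ER median stay the same by construction.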
